A study of Mus musculus with 8 samples.

Results

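The genes described here are the 247 genes of mouse chromosome 18 that were expressed in a set of pro-B cell lines, out of 10479 genes expressed anywhere in the genome. A gene counted as expressed when its FPKM (fragments per kilobase of transcript, scaled to the mapped reads, a level corrected for transcript length and for sequencing depth) was 1 or more in at least 2 of 8 libraries. The files listed 592 gene symbols with a locus on chromosome 18. Of these, 256 passed that level with a valid status in every library, and 336 did not. Of those 256, 9 were left out by name (Cd74, Egr1, Tcf4, Esco1, Pmaip1, Hars, Hars2, Lars and Nars), which left the 247.

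Poly(A)-selected RNA was sequenced from 4 cell lines of B-cell progenitors, derived from bone marrow of 129SV mice and grown without treatment, with 2 libraries per line. The lines were wild type (WT), CBE-/- (1) and CBE-/- (2), here CBE line 1 and CBE line 2, both with the genotype IGCR1-/-, and Eµ-/-, here the Eµ-deleted line. IGCR1 is an intergenic control region of the immunoglobulin heavy chain locus that holds CTCF-binding elements (CBEs), and Eµ is the enhancer inside that locus; the locus lies on chromosome 12. WT and Eµ-deleted each came as a single line, so genotype and line cannot be told apart there, and 2 lines with the IGCR1-/- genotype were available to compare. Nothing in the labels says that the paired libraries of a line were grown apart, and p-values therefore reflect a spread between libraries that may be technical.

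Expression of a whole chromosome can be read as the typical level of its many genes, each measured against the same gene in other lines. Genes that sit side by side on a chromosome share its copy number and large chromatin domains. Apart from clusters of related genes, many belong to unrelated pathways. The genes of chromosome 18 range from housekeeping genes such as Rps14, a protein of the small ribosomal subunit, to genes of B cells such as Mzb1, a co-chaperone of antibody assembly in the endoplasmic reticulum. DNA copy number was not analysed here. In bulk RNA, fewer cells of a type and less RNA per cell cannot be told apart.

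The depth implied by the confidence intervals in the files was 31.3 to 49.5 M reads per library, and the median member had 1735 to 2753 implied reads in a library; 11 members had a median under 100 implied reads. All 12 pro-B markers listed were found, with a summed level of 2800 to 4128 FPKM per library, and 10 of them were at 1 FPKM or more in WT and 12 in the other lines. Those under 1 FPKM in WT were Rag1 (0.0427 and 0.0295) and Rag2 (0.0207 and 0.00543). In the other lines Rag1 had 3.77 to 13.8 FPKM and Rag2 1.93 to 5.38. No T-cell, erythroid or stromal marker reached 1 FPKM in any library, with summed levels of at most 0.270, 0.247 and 0.0189 FPKM. Myeloid markers summed to 1.61 to 8.85 FPKM, with 1 or 2 of 5 found at 1 FPKM or more.

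The chromosome as a whole stood at different levels in the 4 lines. The median FPKM of the 247 members was 16.9 and 17.4 (WT), 19.8 and 20.5 (CBE line 1), 14.4 and 14.4 (CBE line 2), and 13.3 and 14.5 (Eµ-deleted). WT and CBE line 1 were both above CBE line 2 and the Eµ-deleted line, and no library of the upper pair overlapped the lower pair. Relative to each gene's own mean over the 8 libraries, on the log2(FPKM + 1) scale, the median member was at 0.10 and 0.15 (WT), 0.28 and 0.27 (CBE line 1), −0.20 and −0.18 (CBE line 2), and −0.23 and −0.15 (Eµ-deleted). The median of all 10479 genes on the same scale lay between −0.018 and 0.027 in every library. Among the 247 members, 200 and 216 were above their own mean in the 2 libraries of CBE line 1, against 46 and 43 in CBE line 2.

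**Figure D1:**
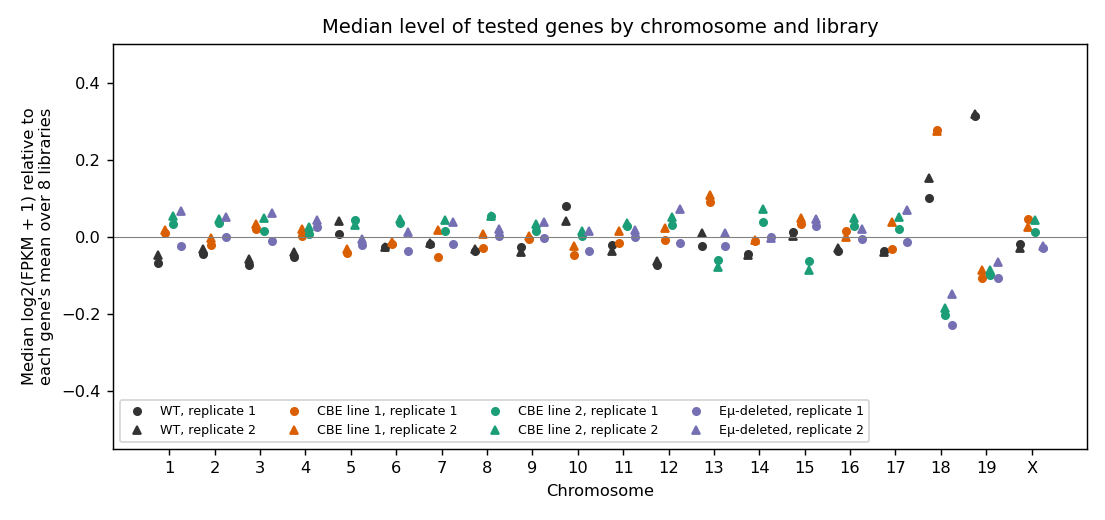
Median level of the tested genes of each chromosome in each library, as log2(FPKM + 1) relative to each gene's mean over the 8 libraries (vertical axis); circles are replicate 1 and triangles replicate 2, coloured by line. On chromosome 18 the 2 libraries of CBE line 1 stand at 0.28 and 0.27 and those of CBE line 2 at −0.20 and −0.18; chromosome 19 has WT apart from the other lines.

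Each line was then set against the mean of the other three. CBE line 1 was higher by a median of 0.36 over the members (0.00 over all genes), with 217 of 247 members, 87.9%, above 0. CBE line 2 and the Eµ-deleted line were each lower, by a median of −0.26 (all genes 0.03 and −0.00), with 40 and 56 members above 0. WT was higher by a median of 0.17 (all genes −0.02), with 162 members above 0. These 4 comparisons are made from the same 8 libraries and are not independent, since a line that is high sets the others lower. No other chromosome among 19 had a median as large in size as that of chromosome 18 for the CBE and Eµ-deleted lines; for WT, chromosome 19 was larger, at 0.42. With chromosomes 18 and 19 set aside, the medians of the rest ran from −0.05 to 0.10 (CBE line 1), from −0.10 to 0.08 (CBE line 2), from −0.05 to 0.05 (Eµ-deleted) and from −0.09 to 0.08 (WT).

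Single genes were called by limma's moderated contrast with Benjamini-Hochberg adjustment over all 10479 genes, at an adjusted p under 0.05. Counts under other settings come without the share of all genes called there. They do not show whether the excess over all genes changed. In CBE line 1, 93 members were called higher against a background of 6.79% of all genes tested, and 13 were called lower against a background of 5.91%. Both libraries of CBE line 1 lay above all 6 others for 96 members (6.92% of all genes) and below all 6 for 2 (6.19% of all genes). The count of calls in CBE line 1, 106, was 163 with the replicate number as a block, and it was 60 without WT replicate 1, 62 without WT replicate 2, 45 and 63 without CBE line 1 replicates 1 and 2, and 57 and 59 without CBE line 2 replicates 1 and 2.

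CBE line 2, the other line of the IGCR1-/- genotype, went the opposite way. It had 14 members called higher (7.83% of all genes) and 54 called lower (6.09% of all genes), and for 45 members both of its libraries lay below the 6 others (7.36% of all genes). The difference between the 2 lines of this genotype had a median of 0.47 over the members, CBE line 1 minus CBE line 2. The 68 calls of CBE line 2 became 117 with the replicate block, 40 among members with a mean of 5 FPKM or more, 42 and 39 without WT replicates 1 and 2, and 19 and 15 without CBE line 2 replicates 1 and 2.

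In the Eµ-deleted line 14 members were called higher (7.09% of all genes) and 79 lower (8.79% of all genes), and for 53 members both libraries lay below the 6 others (8.66% of all genes). Its median difference from CBE line 2 was small, at −0.01 for CBE line 2 minus the Eµ-deleted line. The 93 calls became 59 among members with a mean of 5 FPKM or more, 54 and 60 without WT replicates 1 and 2, 55 and 57 without CBE line 2 replicates 1 and 2, and 57 without Eµ-deleted replicate 2.

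WT had 65 members called higher (10.9% of all genes) and 32 called lower (13.7% of all genes). Its 2 libraries lay above all 6 others for 37 members, 15.0% of them and close to the 14.0% of all genes, and below all 6 for 31 members (18.2% of all genes). The 97 calls fell to 33 without WT replicate 1 and to 29 without WT replicate 2. The medians moved far less than the counts: leaving out any library in turn kept them between 0.16 and 0.20 (WT), 0.35 and 0.37 (CBE line 1), −0.28 and −0.25 (CBE line 2), and −0.30 and −0.21 (Eµ-deleted).

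The shift of WT was not even along the chromosome. Members were placed in map order by their mm9 coordinates. In windows of 10 Mb, the median WT difference was −0.40 in the first (17 members) and −0.15 in the next (17 members), then 0.25, 0.24, 0.24, 0.26, 0.23, 0.32 and 0.20 in the windows that followed, with 0.13 for the single member beyond 90 Mb. The same windows gave 0.50, 0.48, 0.39, 0.35, 0.39, 0.27, 0.35, 0.27, 0.33 and 0.48 in CBE line 1, positive in every window. In CBE line 2 they were −0.10, −0.31, −0.27, −0.24, −0.29, −0.23, −0.33, −0.27, −0.25 and −0.34, negative in every window. In the Eµ-deleted line they were 0.04, −0.01, −0.30, −0.27, −0.22, −0.24, −0.27, −0.34, −0.32 and −0.27, so that the first 2 windows again differed from the rest.

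**Figure D2:**
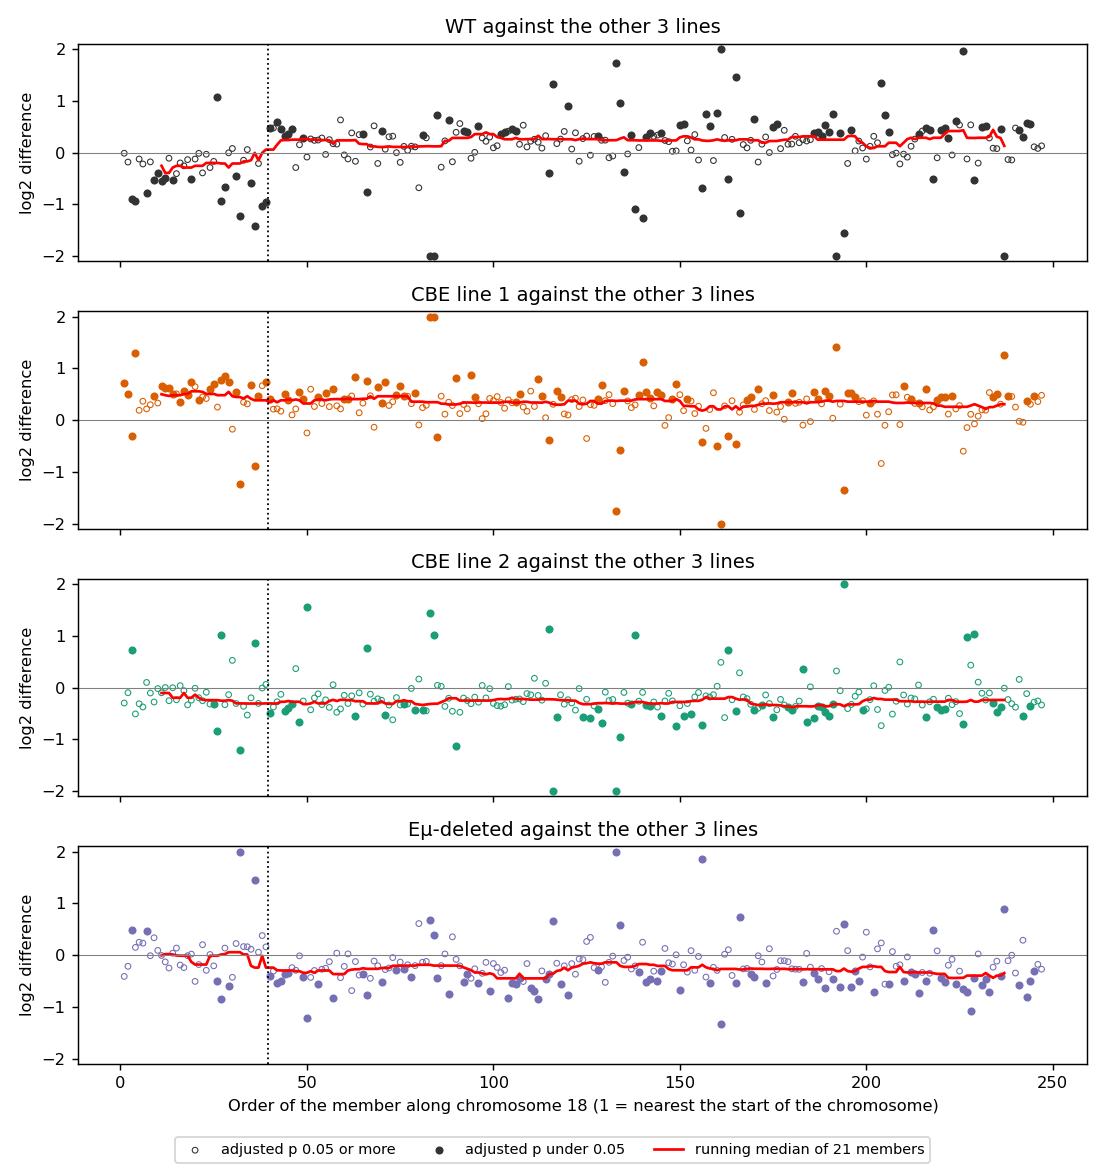
Log2 difference (FPKM + 1) of each line against the other three for the 247 members in map order along chromosome 18; filled points have an adjusted p under 0.05, the red line is the running median of 21 members, the dotted line follows member 39, and differences beyond 2 in size are drawn at 2. CBE line 1 stays above 0 and CBE line 2 below 0 along the chromosome, while WT is below 0 before the dotted line and above 0 after it.

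The change of sign in WT fell in a gap without members, between 4930426D05Rik (chromosome 18, 21810066 to 21814608, mm9) and Mapre2 (23910834 to 24052362). Members were divided at 23 Mb, inside that gap, a place chosen after the data were seen, so the 2 stretches are described and not tested. The first stretch held 39 members and the rest of the chromosome 208. The median WT difference was −0.29 in the first stretch and 0.25 in the rest; over all alternative settings it ranged from −0.34 to −0.22 and from 0.20 to 0.29. CBE line 1 had 0.50 and 0.34, CBE line 2 −0.20 and −0.27, and the Eµ-deleted line 0.04 and −0.29.

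Counts of calls are given by stretch beside the share of all genes called. Lower calls include members that passed the filter only through other lines, such as Klhl14 and Rnf125 in WT. In WT, 1 of 39 members of the first stretch was called higher (2.56%) and 17 lower (43.6%), against 64 higher (30.8%) and 15 lower (7.21%) of 208 in the rest; over all genes the shares were 10.9% and 13.7%. The 17 lower calls became 6 without either WT library, and the 64 higher calls 16 and 12 without WT replicates 1 and 2 and 37 and 38 without CBE line 2 replicates 1 and 2. Both WT libraries lay below the 6 others for 17 of 39 members in the first stretch (43.6%) and for 14 of 208 in the rest (6.73%), against 18.2% of all genes. In the Eµ-deleted line, 4 members of the first stretch were called higher and 3 lower, near the 7.09% and 8.79% of all genes, against 10 higher (4.81%) and 76 lower (36.5%) in the rest; with each library left out in turn the 76 ranged from 39 to 68.

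In CBE line 1 the counts were 22 higher and 3 lower, then 71 higher and 10 lower. The higher calls were 56.4% and 34.1% of the stretches, against 6.79% of all genes, and the lower calls were near the 5.91% of all genes. Leaving out each library in turn gave 11 to 26 and 29 to 91 higher calls, the lowest without CBE line 1 replicate 1. In CBE line 2 they were 3 higher and 3 lower, then 11 higher and 51 lower, and the 51 (24.5%, against 6.09% of all genes) became 6 and 3 without CBE line 2 replicates 1 and 2 and 27 and 24 without WT replicates 1 and 2. The first stretch held genes of lower level, with a median mean of 8.47 FPKM against 17.8; among members with a mean of 5 FPKM or more, 27 and 161, the WT medians were −0.22 and 0.28.

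By library, the median member of the first stretch stood at −0.27 and −0.21 (WT), 0.36 and 0.39 (CBE line 1), −0.20 and −0.14 (CBE line 2), and −0.10 and 0.14 (Eµ-deleted), relative to the mean over 8 libraries. The 2 Eµ-deleted libraries were on opposite sides of 0 there, and the median of that line in the first stretch ranged from −0.07 to 0.14 over all alternative settings, so its sign was not fixed. In the rest of the chromosome the libraries stood at 0.16 and 0.19 (WT), 0.25 and 0.25 (CBE line 1), −0.21 and −0.19 (CBE line 2), and −0.25 and −0.18 (Eµ-deleted). There WT and CBE line 1 were close to each other, and CBE line 2 and the Eµ-deleted line were close to each other.

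**Figure D3:**
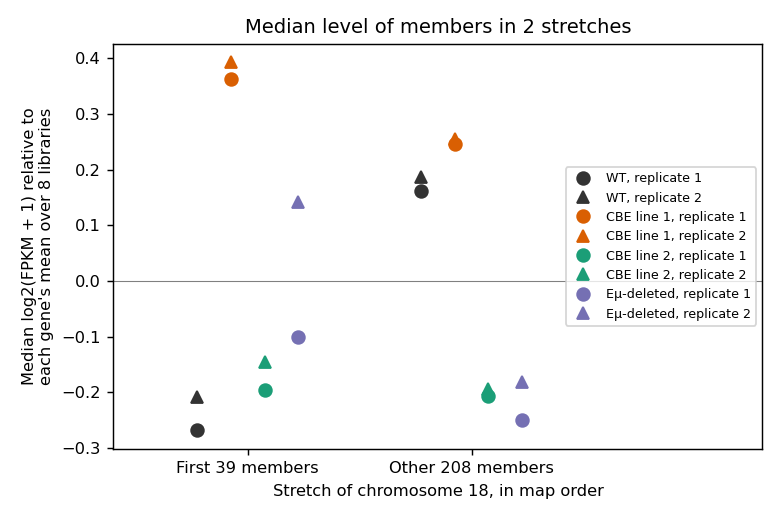
Median log2(FPKM + 1) of members relative to each gene's mean over the 8 libraries, for the first 39 members in map order and the other 208, 1 point per library (circles replicate 1, triangles replicate 2). The WT libraries are at −0.27 and −0.21 in the first stretch and at 0.16 and 0.19 in the rest, and CBE line 1 is above 0 in both.

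Single genes of the first stretch showed the pattern. Kif5b (6201003 to 6241522), the heavy chain of the kinesin-1 motor, had FPKM of 24.5 and 25.3 (WT), 47.4 and 47.6 (CBE line 1), 30.9 and 32.6 (CBE line 2), 32.02 and 34.7 (Eµ-deleted). Its 2 WT libraries were the lowest of the 8 and those of CBE line 1 the highest, with a difference from the other lines of −0.55 ± 0.07 (SE) in WT (adjusted p = 0.00196) and 0.66 ± 0.07 in CBE line 1 (adjusted p = 0.0016). Rock1 (10064399 to 10181790), a kinase of the actin cytoskeleton, had 17.1 and 17.4 (WT), 34.5 and 33.1 (CBE line 1), 19.7 and 20.1 (CBE line 2), 21.6 and 24.4 (Eµ-deleted). WT was again lowest and CBE line 1 highest, by −0.51 ± 0.08 (SE; adjusted p = 0.00371) and 0.73 ± 0.08 (adjusted p = 0.00137); the WT call was lost without WT replicate 1 or 2 (adjusted p = 0.0538 and 0.0508). Map3k8 (4331325 to 4352951), a kinase of Toll-like receptor signalling, had 1.86 and 1.56 (WT), 6.804 and 8.52 (CBE line 1), 2.02 and 2.76 (CBE line 2), 2.85 and 4.85 (Eµ-deleted), higher in CBE line 1 by 1.30 ± 0.18 (SE; adjusted p = 0.0053). Kif5b, Rock1 and the genes at the change of sign were chosen after their values were seen.

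Across the gap, Trappc8 (20975725 to 21054579), a subunit of a tethering complex of membrane traffic, had 12.6 and 12.9 (WT), 26.5 and 24.4 (CBE line 1), 15.2 and 16.4 (CBE line 2), 16.9 and 20.8 (Eµ-deleted). Its WT libraries were the lowest of the 8, and its difference in WT was −0.59 ± 0.10 (SE; adjusted p = 0.00572; 0.0695 and 0.0638 without WT replicates 1 and 2). Klhl14 (21708878 to 21810869), a member of the Kelch-like family, had 0.178 and 0.178 (WT), 1.795 and 1.904 (CBE line 1), 0.8896 and 1.13 (CBE line 2), 0.881 and 2.203 (Eµ-deleted), lowest in WT by −1.03. That difference is given with no test, since Klhl14 reached 1 FPKM only in the other lines. Klhl14 overlaps the last member of the stretch, so reads of the pair may be shared. Mapre2, a protein of growing microtubule ends and the first member after the gap, had 25.03 and 24.1 (WT), 26.3 and 21.3 (CBE line 1), 15.2 and 13.7 (CBE line 2), 15.3 and 15.04 (Eµ-deleted). There WT and CBE line 1 overlapped, and both were above CBE line 2 and the Eµ-deleted line; WT differed by 0.48 ± 0.10 (SE; adjusted p = 0.0132; 0.125 and 0.102 without WT replicates 1 and 2). Galnt1 (24363845 to 24445317), which starts O-linked glycosylation, had 59.7 and 63.5 (WT), 59.1 and 65.8 (CBE line 1), 40.7 and 41.7 (CBE line 2), 41.2 and 43.8 (Eµ-deleted). Ino80c (24263262 to 24280320), a subunit of a chromatin remodelling complex, had 31.3 and 28.8 (WT), 33.5 and 32.8 (CBE line 1), 20.2 and 19.4 (CBE line 2), 21.5 and 20.1 (Eµ-deleted). In both genes the WT and CBE line 1 libraries were all above the 4 libraries of the other lines.

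Npc1 (12348203 to 12394895), the lysosomal cholesterol transporter, was the only member of the first stretch called higher in WT. It had 7.96 and 7.92 (WT), 4.97 and 4.67 (CBE line 1), 2.08 and 2.56 (CBE line 2), 2.76 and 3.12 (Eµ-deleted). WT was the highest line, by 1.08 ± 0.09 (SE; adjusted p = 0.000265), and CBE line 2 the lowest, by −0.83 ± 0.09 (adjusted p = 0.00143).

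Against WT alone, the comparison the genotypes imply, the 3 lines differed along the chromosome. These comparisons share the WT libraries. Chromosome 19 had a larger median in size than chromosome 18 against WT for all 3 lines, at −0.41 (CBE line 1), −0.39 (CBE line 2) and −0.41 (Eµ-deleted). Over all members the median difference was 0.14 for CBE line 1, and −0.30 for both CBE line 2 and the Eµ-deleted line. In the first stretch it was 0.55, 0.11 and 0.27, and in the rest 0.08, −0.38 and −0.41. By library against the WT mean, the first stretch gave 0.62 and 0.53 (CBE line 1), 0.08 and 0.16 (CBE line 2), and 0.13 and 0.43 (Eµ-deleted). The rest gave 0.10 and 0.09, −0.38 and −0.38, and −0.42 and −0.32. By these medians all 6 libraries were above WT in the first stretch, and those of CBE line 1 alone were above WT in the rest. Over all genes the medians against WT were 0.02 (CBE line 1), 0.04 (CBE line 2) and 0.01 (Eµ-deleted). With chromosomes 18 and 19 set aside, other chromosomes reached 0.09 in CBE line 1 and 0.11 in CBE line 2. The 0.08 of CBE line 1 and the 0.11 of CBE line 2 were near those sizes. CBE line 2 had 0.18 from 0 to 10 Mb and −0.02 from 10 to 20 Mb.

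In counts, CBE line 1 had 49 members called higher than WT (10.9% of all genes) and 14 lower (8.54% of all genes). Of these, 26 higher (66.7% of its 39 members) and 1 lower were in the first stretch. The rest held 23 higher (11.1% of 208), near the share of all genes, and 13 lower (6.25%). The 63 calls became 97 with the replicate block, 37 among members with a mean of 5 FPKM or more, 28 and 26 without WT replicates 1 and 2, and 41 without CBE line 1 replicate 1.

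CBE line 2 had 20 members called higher than WT (10.5% of all genes) and 76 lower (8.19% of all genes). Of these, 6 higher (15.4% of its 39 members) and 1 lower were in the first stretch. The rest held 14 higher (6.73% of 208) and 75 lower (36.1%). The 96 calls became 62 among members with a mean of 5 FPKM or more, 45 and 44 without WT replicates 1 and 2, and 42 and 40 without CBE line 2 replicates 1 and 2.

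The Eµ-deleted line had 27 members called higher than WT (11.3% of all genes), near the background, and 87 lower (10.4% of all genes). Of these, 15 higher (38.5% of its 39 members) and 2 lower were in the first stretch. The rest held 12 higher (5.77% of 208) and 85 lower (40.9%). The 114 calls became 70 with no filter on expression, 62 in a fit of the 4 libraries compared, and 46 and 41 without WT replicates 1 and 2.

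The shift differed with expression level, with members split in 3 parts by their mean log2(FPKM + 1). The parts held 82, 82 and 83 members, with a median mean level of 3.52, 17.3 and 54.2 FPKM. The median difference in CBE line 1 was 0.26, 0.38 and 0.41 from the lowest to the highest part. In CBE line 2 it was −0.23, −0.28 and −0.31, in the Eµ-deleted line −0.17, −0.24 and −0.34, and in WT −0.01, 0.16 and 0.29. A pseudocount of 1 shrinks differences of low genes: with 0.1 in its place CBE line 1 had 0.37, 0.41 and 0.41, CBE line 2 −0.28, −0.30 and −0.31, the Eµ-deleted line −0.21, −0.26 and −0.35, and WT 0.01, 0.18 and 0.30. With that pseudocount the order by level was the same in all 4 lines, and the 3 parts lay closer together in the CBE lines. Level and position are mixed here. The first stretch had a median level of 8.47 FPKM and a WT median of −0.29, against 17.8 FPKM and 0.25 in the rest. The parts were not split by stretch.

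Calls in CBE line 1 also split by level. In the lowest part 19 members were called higher and 10 lower, in the middle part 34 and 3, and in the highest part 40 and 0 by limma (64 and 0 at an unadjusted p under 0.05). The higher calls were 23.2%, 41.5% and 48.2% of the parts, against 6.79% of all genes, and the lower calls 12.2%, 3.66% and 0%, against 5.91%. In the Eµ-deleted line the counts of lower calls were 17, 22 and 40, against 8.79% of all genes, and those of higher calls 12, 2 and 0 (19, 2 and 1 at an unadjusted p under 0.05), against 7.09%. The background is over genes of all levels and was not split by level.

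**Figure D4:**
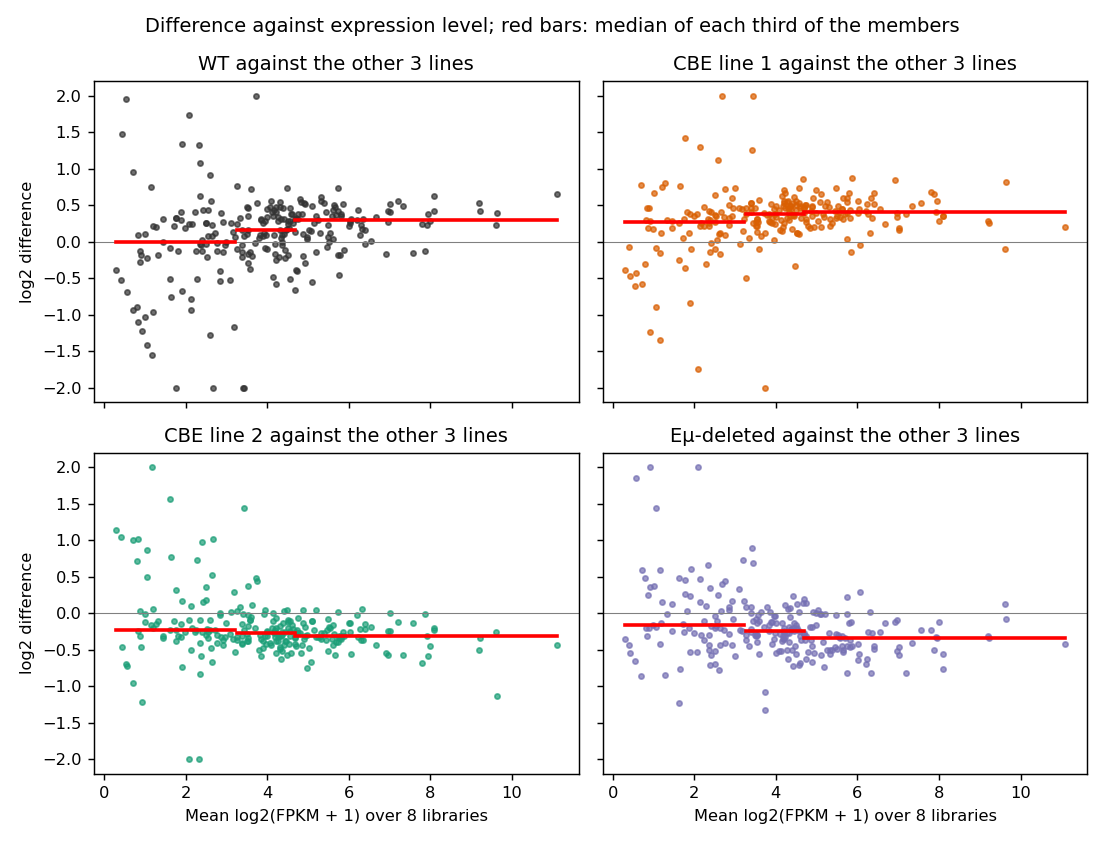
Log2 difference (FPKM + 1) of each line against the other three (vertical axis, drawn at 2 where larger in size) against the mean log2(FPKM + 1) of the member over 8 libraries; red bars are the medians of the 3 parts of the members by level. The bars of CBE line 1 are at 0.26, 0.38 and 0.41, and the points spread more at low levels in all 4 panels.

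The 5 members with the highest mean level are given singly. Rps14 (60934250 to 60938200) had FPKM of 3217 and 2929 (WT), 2407 and 2463 (CBE line 1), 1672 and 1819.5 (CBE line 2), 1782 and 1729 (Eµ-deleted). WT was highest, by 0.65 ± 0.10 (SE; adjusted p = 0.00464; 0.0867 and 0.0543 without WT replicates 1 and 2; 0.114 with no filter on expression). In CBE line 1 its difference was 0.21 with an adjusted p of 0.279. Rpl17, a protein of the large ribosomal subunit, had 714 and 773 (WT), 580.1 and 805 (CBE line 1), 465 and 541 (CBE line 2), 463 and 543 (Eµ-deleted); ribosomal protein genes have many processed copies, so both values are uncertain. Atp5a1, the alpha subunit of mitochondrial ATP synthase, had 797 and 746 (WT), 816 and 559.9 (CBE line 1), 499.7 and 404 (CBE line 2), 551 and 449 (Eµ-deleted). Neither Rpl17 nor Atp5a1 was called in CBE line 1 (adjusted p = 0.365 and 0.391). Eno1b had 947 and 824 (WT), 933 and 589 (CBE line 1), 797 and 585 (CBE line 2), 1107 and 631 (Eµ-deleted); the files give it loci on chromosomes 18 and 4 whose levels keep a fixed ratio, so its value cannot be placed on chromosome 18.

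Mzb1 (35806919 to 35809021) had 1072 and 882 (WT), 1379 and 1071 (CBE line 1), 488 and 397 (CBE line 2), 826 and 699 (Eµ-deleted). CBE line 2 was the lowest line, by −1.13 ± 0.16 (SE; adjusted p = 0.00434; 0.0713 without CBE line 2 replicate 2). CBE line 1 differed by 0.82 ± 0.16 (adjusted p = 0.0174), with an adjusted p of 0.0539 without WT replicate 2, 0.125 without CBE line 1 replicate 1, 0.0527 without CBE line 2 replicate 2 and 0.0762 with no filter on expression, and its libraries overlapped those of WT.

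Members were grouped by role to describe the shift of CBE line 1 over genes of different function. Of 23 genes listed as immune and B cell related, 14 were members, and their median difference in CBE line 1 was 0.46, with 7 called higher and 1 lower. Over the 6 lists, 23.5% to 70.0% of the members were called higher in CBE line 1, against 37.7% of all members and 6.79% of all genes. From 0% to 7.14% were called lower, against 5.26% of all members and 5.91% of all genes. Map3k8 was among those called higher. Tmem173, the STING adaptor of cytosolic DNA sensing, had 52.7 and 56.4 (WT), 86.5 and 96.6 (CBE line 1), 47.8 and 50.1 (CBE line 2), 38.4 and 53.9 (Eµ-deleted), all CBE line 1 libraries above the rest, by 0.87 ± 0.13 (SE; adjusted p = 0.00716; 0.0585 without CBE line 1 replicate 2). Rnf125, a ubiquitin ligase of antiviral signalling, was the 1 called lower, with 0.00975 and 0 (WT), 0.328 and 0.299 (CBE line 1), 2.17 and 2.39 (CBE line 2), 2.67 and 4.37 (Eµ-deleted). It was called higher in the Eµ-deleted line, by 1.45 ± 0.14 (SE; adjusted p = 0.000982), and its lower call in CBE line 1 was lost without either library of that line (adjusted p = 0.0626 and 0.0579).

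Of 39 transcription and chromatin genes, 32 were members, with a median of 0.44 in CBE line 1, 15 called higher and none lower by limma (24 higher and 0 lower at an unadjusted p under 0.05); all 32 were above 0. Crem (3266352 to 3337587), a cAMP-responsive transcription factor and the member nearest the start of the chromosome, had 5.93 and 5.55 (WT), 7.64 and 10.3 (CBE line 1), 4.91 and 4.697 (CBE line 2), 4.28 and 4.67 (Eµ-deleted). It was higher in CBE line 1 by 0.72 ± 0.11 (SE; adjusted p = 0.00867). Ss18, a subunit of the BAF chromatin remodeller, had 40.2 and 42.6 (WT), 71.3 and 69.8 (CBE line 1), 42.8 and 47.1 (CBE line 2), 52.9 and 66.8 (Eµ-deleted), higher by 0.55 ± 0.10 (adjusted p = 0.0174). That call was lost without either WT library (adjusted p = 0.0575 and 0.0511), without either CBE line 1 library (0.11 and 0.0801), without CBE line 2 replicate 1 (0.0583) and with no filter on expression (0.0553).

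Of 27 genes of RNA processing and translation, 26 were members, with a median of 0.34 in CBE line 1, 8 called higher and none lower by limma (17 and 0 at an unadjusted p under 0.05). Dcp2, the decapping enzyme of messenger RNA, had 9.23 and 8.65 (WT), 15.1 and 15.2 (CBE line 1), 10.3 and 10.6 (CBE line 2), 10.6 and 10.2 (Eµ-deleted). It was higher in CBE line 1 by 0.57 ± 0.07 (SE; adjusted p = 0.00315), and its 2 libraries did not overlap the others. Snrpd1, a core protein of the spliceosome, had 236 and 204 (WT), 380.2 and 284 (CBE line 1), 256 and 212 (CBE line 2), 235 and 137 (Eµ-deleted). Its difference of 0.65 ± 0.22 (SE) in CBE line 1 had an adjusted p of 0.123, of 0.0127 with the replicate block and of 0.0275 without Eµ-deleted replicate 1. In the Eµ-deleted line 10 of the 26 were called lower and none higher by limma (15 and 0 at an unadjusted p under 0.05). The 10 were 38.5% of the list, near the 32.0% of all members called lower there, against 8.79% of all genes.

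Of 24 genes of cell cycle, centrosome and cytoskeleton, 23 were members, with a median of 0.47 in CBE line 1, 12 called higher and 1 lower. Bin1, a membrane-curving BAR-domain protein, had 107 and 112 (WT), 169 and 204 (CBE line 1), 84.7 and 94.9 (CBE line 2), 108 and 116 (Eµ-deleted). It was higher in CBE line 1 by 0.84 ± 0.10 (SE; adjusted p = 0.00244). The 1 called lower was Spire1, an actin nucleator described with the exceptions.

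Of 19 genes of mitochondria and metabolism, 17 were members, with a median of 0.28 in CBE line 1, 4 called higher and none lower by limma (8 and 0 at an unadjusted p under 0.05). In WT their median was 0.36, with 9 called higher and none lower (11 and 0 unadjusted). The 9 were 52.9%, against 26.3% of all members and 10.9% of all genes. By position, 2.56% of members of the first stretch and 30.8% of the rest were called higher in WT. The list was not split by position. In the Eµ-deleted line their median was −0.42, with none called higher and 8 lower (1 and 11 unadjusted). The 8 were 47.1%, against 32.0% of all members and 8.79% of all genes. By position, 7.69% of members of the first stretch and 36.5% of the rest were called lower in the Eµ-deleted line. Ndufa2, a subunit of respiratory complex I, had 344 and 338 (WT), 324 and 334 (CBE line 1), 242 and 244 (CBE line 2), 220.4 and 190.4 (Eµ-deleted). It was lower in the Eµ-deleted line by −0.55 ± 0.08 (SE; adjusted p = 0.00652), and that line's libraries were the lowest of the 8. Me2, a mitochondrial malic enzyme, had 82.9 and 80.6 (WT), 121 and 115 (CBE line 1), 78.96 and 75.2 (CBE line 2), 72.3 and 56.8 (Eµ-deleted), higher in CBE line 1 by 0.66 ± 0.10 (adjusted p = 0.00763; 0.0669 without CBE line 1 replicate 1). Cyb5, cytochrome b5, was outside the list under its symbol in these files and had 197 and 193 (WT), 182 and 172 (CBE line 1), 140.1 and 134 (CBE line 2), 98.7 and 90.8 (Eµ-deleted); it was lower in the Eµ-deleted line by −0.82 ± 0.07 (SE; adjusted p = 0.000741).

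Of 32 genes of membrane traffic and protein turnover, 30 were members, with a median of 0.44 in CBE line 1, 21 called higher and none lower by limma (27 and 0 at an unadjusted p under 0.05). Reep5, which shapes tubules of the endoplasmic reticulum, had 47.8 and 42.7 (WT), 59.2 and 70.3 (CBE line 1), 31.9 and 34.1 (CBE line 2), 37.4 and 37.8 (Eµ-deleted). It was higher in CBE line 1 by 0.74 ± 0.09 (SE; adjusted p = 0.0033), where both libraries were above the rest. Osbpl1a, an oxysterol-binding protein, had 16.9 and 17.2 (WT), 39.8 and 37.7 (CBE line 1), 20.2 and 20.7 (CBE line 2), 21.9 and 31.6 (Eµ-deleted), higher by 0.86 ± 0.13 (adjusted p = 0.00773; 0.0696 without CBE line 1 replicate 1). In CBE line 2, 2 of the 30 (6.67%) were called higher, against 5.67% of all members and 7.83% of all genes. The 12 called lower were 40%, against 21.9% of all members and 6.09% of all genes. All 6 lists had a median above 0 in CBE line 1 and below 0 for both CBE line 2 and Eµ-deleted cells.

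In CBE line 1, 13 members were called lower, 3 of them in the first stretch; at 5.26% of the members this is near the 5.91% of all genes, so the count is no result about chromosome 18. For only 2 of the 13, Megf10 and C330018D20Rik, did both CBE line 1 libraries lie below all 6 others. Of the 13, 10 were in the lowest part by expression level and 3 in the middle part. Among all members, 7 reached 1 FPKM in the libraries of 1 line only and so were admitted by the line in which they are high: Psma8 and Gramd3 (Eµ-deleted), Iigp1 and Pstpip2 (WT), Pcdhgb4 and Pard6g (CBE line 2) and Pcdhb17 (CBE line 1). Of these, Psma8, Gramd3, Iigp1 and Pcdhgb4 were among the 13, and their lower calls in CBE line 1 show no exception there, since other lines were as low.

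The other 9 were Megf10, Spinkl, Spire1, Rnf125, Spink11, C330018D20Rik, Snhg4, Bambi and Slc12a2. Without CBE line 1 replicate 1 the call was lost for 6 of them: Spink11 (adjusted p = 0.173), C330018D20Rik (0.153), Snhg4 (0.123), Bambi (0.12), Slc12a2 (0.0679) and Rnf125 (0.0626); each was lost without at least 1 other library too. Megf10, Spinkl and Spire1 kept their call whichever library was left out. Of these, CBE line 1 was the lowest line only for Megf10. Spinkl was lower in CBE line 2 (0.0455 and 0.0419 FPKM) and Spire1 in WT (0 and 0). The lower calls of Spinkl and Spire1 therefore show no exception of CBE line 1.

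Megf10 (57292744 to 57457121), a receptor for engulfment of dying cells, had FPKM of 58.4 and 61.02 (WT), 4.49 and 2.67 (CBE line 1), 17.00 and 15.2 (CBE line 2), 5.53 and 5.797 (Eµ-deleted). WT was the highest line, by 2.92 ± 0.15 (SE; adjusted p = 3.39e-05), and CBE line 1 the lowest, by −2.09 ± 0.15 (adjusted p = 0.000335). Spinkl (44326012 to 44334727), of the Kazal-type protease inhibitors, had 9.57 and 9.35 (WT), 1.12 and 0.385 (CBE line 1), 0.0455 and 0.0419 (CBE line 2), 16.5 and 16.5 (Eµ-deleted). WT and the Eµ-deleted line were high and CBE line 2 was near 0, lower by −2.70. That difference is given with no test, since Spinkl reached 1 FPKM only in the other lines. Its neighbour Spink11 (44349699 to 44355831), of the same family, had 2.18 and 1.32 (WT), 0.195 and 0.242 (CBE line 1), 0 and 0 (CBE line 2), 1.43 and 1.06 (Eµ-deleted), high in the same 2 lines at a lower level.

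Psma8 (14864660 to 14920808), an alpha subunit of the proteasome typical of testis, was found almost only in the Eµ-deleted line, with 0.007399 and 0 (WT), 0 and 0 (CBE line 1), 0.0119 and 0.01098 (CBE line 2), 12.3 and 11.3 (Eµ-deleted). Its difference there was 3.67, given with no test since it is a member through that line alone. Its neighbours Ss18 and Taf4b were expressed in all 8 libraries; Taf4b, a subunit of the transcription factor TFIID, had 5.61 and 6.48 (WT), 7.55 and 8.66 (CBE line 1), 5.098 and 5.501 (CBE line 2), 6.21 and 8.497 (Eµ-deleted). Spire1 (67647863 to 67712375) had 0 and 0 (WT), 0.104 and 0.128 (CBE line 1), 6.15 and 6.76 (CBE line 2), 1.96 and 2.17 (Eµ-deleted). It was highest in CBE line 2, by 2.31 ± 0.07 (SE; adjusted p = 9.78e-06), and listed at 0 in both WT libraries. Tubb6 (67550385 to 67562403), a beta-tubulin nearby, had 0.0715 and 0.101 (WT), 7.31 and 5.07 (CBE line 1), 3.66 and 2.47 (CBE line 2), 4.09 and 2.67 (Eµ-deleted), low in WT by −2.20. That difference is given with no test, since Tubb6 reached 1 FPKM only in the other lines.

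A pair of adjacent members had large differences in WT. Ctnna1 (35278566 to 35414429), alpha-catenin of cell adhesion, had 0.01905 and 0.0199 (WT), 39.2 and 35.6 (CBE line 1), 24.03 and 20.2 (CBE line 2), 14.2 and 14.8 (Eµ-deleted). WT was near 0 and lower by −4.55, given with no test since Ctnna1 reached 1 FPKM only in the other lines. CBE line 1 was the highest line, by 2.43 ± 0.09 (SE, limma adjusted p = 2.86e-05). Sil1 (35426050 to 35658579), the next member and an exchange factor of the chaperone BiP, had 0 and 0.0116 (WT), 16.96 and 20.2 (CBE line 1), 9.67 and 10.04 (CBE line 2), 6.495 and 7.22 (Eµ-deleted). WT was again near 0, by −3.56, given with no test for the same reason. The 3 other lines kept the order CBE line 1, CBE line 2, Eµ-deleted in both genes. The members on either side were expressed in WT: Hspa9 (35097069 to 35114005), the mitochondrial chaperone mortalin, had 273 and 321 (WT), 255 and 344 (CBE line 1), 201 and 203 (CBE line 2), 206 and 278 (Eµ-deleted), and Snhg4 (35713064 to 35717970), a small nucleolar RNA host gene that overlaps Snora74a, had 30.3 and 32.8 (WT), 17.8 and 17.6 (CBE line 1), 21.4 and 22.1 (CBE line 2), 17.2 and 16.04 (Eµ-deleted).

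Other members were near 0 in some lines. Iigp1 (60535683 to 60552283), an interferon-inducible GTPase, had 2.06 and 1.73 (WT), 0.0726 and 0.0412 (CBE line 1), 0.0585 and 0.0657 (CBE line 2), 0.0184 and 0.0194 (Eµ-deleted), highest in WT at a low level. Pstpip2 (78033289 to 78121618), an F-BAR protein of macrophage actin, had 4.13 and 2.15 (WT), 0.0643 and 0.0639 (CBE line 1), 0.00863 and 0.0159 (CBE line 2), 0.0163 and 0.0515 (Eµ-deleted), with WT again the highest line. Both are members through WT alone, so their WT differences, 1.47 and 1.96, are given with no test. Myeloid markers summed to 6.65 and 3.28 FPKM in WT, within the range of the other lines; their part in this result was not tested. Mbp (82644515 to 82755029), known from myelin, had 2.600 and 2.36 (WT), 19.04 and 19.9 (CBE line 1), 9.11 and 10.03 (CBE line 2), 13.3 and 19.1 (Eµ-deleted). WT was lowest, by −2.15 ± 0.14 (SE; adjusted p = 8.08e-05).

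In CBE line 2, Pcdhgc3 (37966064 to 38001526), a protocadherin of the gamma cluster, had 9.197 and 8.800 (WT), 5.19 and 4.58 (CBE line 1), 0.556 and 0.501 (CBE line 2), 5.898 and 6.200 (Eµ-deleted). CBE line 2 was the lowest line, by −2.29, with no test since Pcdhgc3 reached 1 FPKM only in the other lines. Pcdhgb4, which shares the last exons of the cluster, was higher there by 1.14, with no test since it is a member through that line alone. The genes of this cluster share exons, and how the reads were divided among them is uncertain. Fhod3 (24867124 to 25292008), an actin-organizing formin, had 1.87 and 2.04 (WT), 1.55 and 1.89 (CBE line 1), 5.77 and 6.15 (CBE line 2), 0.361 and 0.963 (Eµ-deleted). It was higher in CBE line 2 by 1.56 ± 0.14 (SE, limma adjusted p = 0.000728). In the Eµ-deleted line it was lower by −1.22, with no test since it reached 1 FPKM only in the other lines.

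**Figure D5:**
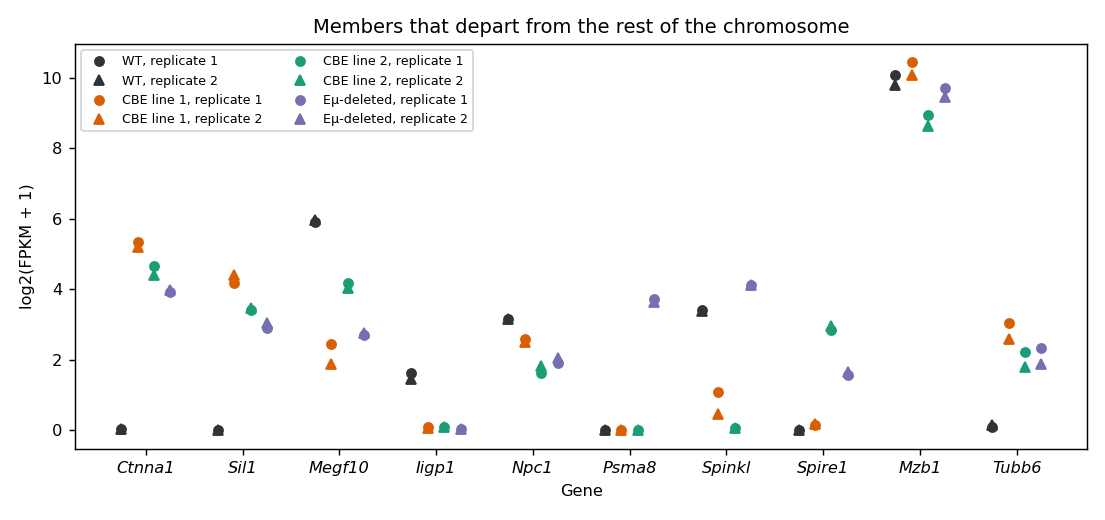
Log2(FPKM + 1) in each library for 10 members, circles for replicate 1 and triangles for replicate 2, coloured by line. All but Mzb1 depart from the rest of chromosome 18. Mzb1 is higher in CBE line 1 and lower in CBE line 2, as the median member is. Ctnna1, Sil1 and Tubb6 are near 0 in WT only, Psma8 is near 0 in every line but the Eµ-deleted one, and Mzb1 is the highest in level of those drawn.

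Members lay about as close to their stretch median as genes in general lay to theirs. In CBE line 1, 76.9% of the members of the first stretch and 75.0% of those in the rest were within 0.25 of the stretch median, against 70.9% of all genes around the median of all genes. The shares were 53.8%, 61.1% and 58.4% for WT. They were 74.4%, 71.2% and 68.5% for CBE line 2 and 59.0%, 63.9% and 62.8% for Eµ-deleted cells.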

How the data were processed

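The authors deposited an FPKM value per gene with its confidence interval for each library; reads were handled with TopHat and Cufflinks on mm9, per the submitters' processing notes; the versions used are not given in the sources. Per the labels' protocols, libraries were stranded mRNA sequenced as single reads of 75 bp.

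From these values, FPKM was summed over loci for 277 symbols and 21 symbols with a failed status were left out. The 10479 genes that reached an FPKM of 1 in 2 or more libraries entered a limma fit (limma 3.58.1, R 4.3.3) of log2(FPKM + 1), with a mean-variance trend, 4 residual degrees of freedom and Benjamini-Hochberg adjustment; the script was tested on simulated data. A difference on this scale understates the change of low genes. Implied reads are (2 FPKM divided by the distance to the upper interval bound) squared. Differences between replicates 1 and 2 correlated across genes at 0.279 to 0.502 in all pairs of lines, so the replicate numbers mark a shared difference. The main fit had no term for it, and the replicate block was run as another setting.

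Named members are the 6 largest rises and falls in each line whose 2 libraries lie outside the other 6, up to 10 exceptions to the shift, up to 4 per role list and the 5 highest in level; others were chosen after their values were seen, and so was the division at 23 Mb. Members, lists and tests were chosen with earlier results of these data known. Every fit was repeated with a pseudocount of 0.1 or 5, without the filter, on genes with a mean of 5 FPKM or more, without the trend, with 2 other scalings, with the replicate block, on the libraries compared alone, and with each library left out.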

Additional observations from a re-analysis of the deposited data

Results flagged for a closer look

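The 2 lines of the IGCR1-/- genotype stood on opposite sides of WT over the members. The median difference from WT was 0.139 for CBE line 1 but −0.296 for CBE line 2, and every library of each line lay on its side of the WT mean. The difference itself was not tested. In the first stretch both lines were above WT, at 0.55 (CBE line 1) and 0.11 (CBE line 2). In the rest of the chromosome they were at 0.08 and −0.38. That 0.08 lay within the range of other chromosomes in CBE line 1, −0.09 to 0.09 with chromosomes 18 and 19 set aside.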

How the results depend on the processing

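No median over the members changed sign under any setting run. With a pseudocount of 5 the medians against WT were 0.091 (CBE line 1), −0.23 (CBE line 2) and −0.23 (Eµ-deleted), and against the other three 0.12 (WT), 0.28 (CBE line 1), −0.21 (CBE line 2) and −0.19 (Eµ-deleted). With 0.1 they were −0.34 and −0.35 against WT (CBE line 2, Eµ-deleted), and 0.39 and −0.30 against the other three in the CBE lines. Among members with a mean of 5 FPKM or more, medians against WT were −0.37 (CBE line 2) and −0.35 (Eµ-deleted), WT against the other three gave 0.23, and the counts of calls were 37 and 62 for the CBE lines against WT, and 40 and 59 for CBE line 2 and Eµ-deleted cells against the other three, from fewer genes tested. Quantile normalization gave 0.093 and −0.36 for the CBE lines against WT and −0.30 for CBE line 2 against the other three. With the replicate block the calls were 97 for CBE line 1 against WT, 163 for CBE line 1 and 117 for CBE line 2 against the other three; beside these counts, the block changed the call of no named gene other than Snrpd1, Isoc1, Lmnb1, and, in CBE line 2, Hspa9 and Psmg2, which it took past the threshold. The block also raised other counts. WT had 20 lower calls in the first stretch and 97 higher in the rest, and the Eµ-deleted line 113 lower in the rest. Against WT, lower calls in the rest were 114 (CBE line 2) and 119 (Eµ-deleted). The Eµ-deleted line had 70 calls against WT with no filter and 62 in a fit of the 4 libraries compared. Apart from fewer genes or samples, the cause of these changes was not tested. The share of all genes called under each setting was not set beside these counts.

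With each library left out in turn, calls ranged from 26 to 78, 40 to 113 and 41 to 114 against WT (CBE line 1, CBE line 2, Eµ-deleted), and from 29 to 110, 45 to 129, 15 to 94 and 54 to 91 against the other three (WT, CBE line 1, CBE line 2, Eµ-deleted). The medians ranged from 0.13 to 0.15, −0.32 to −0.29 and −0.35 to −0.25 against WT, and from 0.16 to 0.20, 0.35 to 0.37, −0.28 to −0.25 and −0.30 to −0.21 against the other three. Where a line was left with 1 library, it was assumed to vary like the others. Of 102 calls of named genes that reached 1 FPKM in 2 or more lines, 59 held in every such fit. Eno1b in CBE line 1 ranged from −0.43, without CBE line 1 replicate 1, and turned sign, to 0.23 without CBE line 1 replicate 2 and to 0.032 without Eµ-deleted replicate 1. Depth limits the 11 members with a median under 100 implied reads.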

Other observations

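Further members differed between the lines in several ways. Haus1, a subunit of the augmin complex of the mitotic spindle, had FPKM of 55.3 and 53.3 (WT), 42.96 and 44.9 (CBE line 1), 33.4 and 34.3 (CBE line 2), 30.4 and 27.6 (Eµ-deleted). The WT libraries were the highest of the 8 and the Eµ-deleted libraries the lowest: it was higher in WT by 0.62 ± 0.07 (SE; limma adjusted p = 0.00132) and lower in the Eµ-deleted line by −0.56 ± 0.07 (adjusted p = 0.00323). Slc39a6, a zinc transporter, had 35.05 and 36.1 (WT), 44.96 and 42.4 (CBE line 1), 23.2 and 22.4 (CBE line 2), 31.9 and 33.2 (Eµ-deleted), lower in CBE line 2 by −0.67 ± 0.07 (SE; adjusted p = 0.00108), where both libraries were the lowest of the 8. Polr2d, a subunit of RNA polymerase II, had 94.2 and 80.2 (WT), 112 and 106 (CBE line 1), 85.7 and 77.97 (CBE line 2), 60.3 and 43.9 (Eµ-deleted). It was lower in the Eµ-deleted line by −0.82 ± 0.13 (adjusted p = 0.00857).

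Pard6g and Epg5 were highest in CBE line 2, the line in which the median member was lower. Pard6g, a cell polarity protein, had 0.007501 and 0.0118 (WT), 0.279 and 0.281 (CBE line 1), 1.36 and 1.22 (CBE line 2), 0.0571 and 0.0601 (Eµ-deleted). It is a member through CBE line 2 alone, so its difference there, 1.05, is given with no test. Epg5, a tether of autophagy, had 3.799 and 4.09 (WT), 4.07 and 3.71 (CBE line 1), 8.94 and 6.68 (CBE line 2), 2.86 and 2.46 (Eµ-deleted). Its 2 CBE line 2 libraries were above all others, by 0.97 ± 0.12 (SE; limma adjusted p = 0.00235). Ticam2, the TRAM adaptor of Toll-like receptor 4 signalling, had 2.18 and 2.01 (WT), 10.1 and 9.401 (CBE line 1), 4.97 and 4.48 (CBE line 2), 5.599 and 6.07 (Eµ-deleted). It was lower in WT by −1.27 ± 0.08 (adjusted p = 8.5e-05) and higher in CBE line 1 by 1.12 ± 0.08 (adjusted p = 0.000335). Ttc39c, in the first stretch, had 0 and 0.00793 (WT), 1.201 and 1.71 (CBE line 1), 1.87 and 1.63 (CBE line 2), 0.0385 and 0.0486 (Eµ-deleted), and was above 1 FPKM in the 4 libraries of the CBE lines and under 0.05 in the other 4. Haus1, Slc39a6 and Ttc39c, and Ticam2 in WT, were chosen after their values were seen.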
